A study of Mus musculus with 2 samples.

Results

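Imprinted growth genes were compared between the hearts of Med1fl/fl and csMed1-/- mice. They are 10 genes chosen by name: Igf2, H19, Dlk1, Meg3, Peg3, Mest, Plagl1, Cdkn1c, Grb10 and Igf2r. A value was analysed here for 9 of these 10 genes, out of 22882 gene symbols in all, and Meg3 was not analysed here. Each of the 9 genes stands on 1 row of the data. Both genotypes were on the C57BL6/J background, 23 days old and of mixed sex. All mice carried the Med1 allele with loxP sites around exons 8 to 10, and the Med1fl/fl animals without Cre served as controls. The csMed1-/- animals carried in addition the α-MyHC-Cre transgene, whose α-myosin heavy chain promoter drives Cre in cardiomyocytes, so other cells of these hearts keep an intact Med1 allele. Heart RNA of 5 mice per genotype was pooled, and 1 library per genotype was sequenced, which leaves no replicates, and nothing was tested between the genotypes.

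An imprinted gene is transcribed mainly from the chromosome inherited from one parent, and the choice is kept by DNA methylation at control regions set in the germ line. Many imprinted genes act on fetal growth. Those expressed from the paternal copy tend to promote growth and those expressed from the maternal copy tend to restrain it, and several are known to decline in many organs as growth slows after birth. Igf2, Dlk1, Peg3, Mest and Plagl1 are expressed from the paternal copy. H19, Meg3, Cdkn1c, Igf2r and, in most tissues, Grb10 are expressed from the maternal copy. The libraries do not separate the parental copies.

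The data are FPKM, fragments per kilobase of transcript scaled to the mapped fragments of the library, which can be compared between genes because they are scaled to transcript length. A difference is given as csMed1-/- FPKM divided by control FPKM, or as the log2 of that ratio, and where a gene is given with a pair of FPKM values the control value comes first. Genes listed at 0 in either library were set aside, 1 FPKM had to be reached in the higher library, and a difference was counted past 2-fold. Of 10489 genes that met this filter, 31.5% differed past 2-fold, 13.6% being higher and 18.0% lower in the csMed1-/- library. Their log2 ratios had a median of -0.07, and the quartiles were -0.72 and 0.55. Read totals were not used here, but the smallest FPKM steps put the depth at about 64.7 M fragments in control and 86.8 M in csMed1-/-, a ratio of 1.34. Med1 itself stood at 3.38 FPKM in control hearts and at 0.412 FPKM in csMed1-/- hearts. The heart genes Tnnt2, Tnni3, Myl2 and Myl3 lay between 1119 and 20467 FPKM over both libraries. Actc1 and Mb, which every cardiomyocyte uses, are listed at 0 in control, so a 0 in these data can stand for a failed estimate.

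Promoter sequence was taken from RefSeq (GRCm38.p6), which held windows for 8 of the 10 genes, all but H19 and Cdkn1c. The sequences of 4 genes are shown because these carry the contrast described next. Peg3 and Plagl1 were higher in the csMed1-/- library, Igf2 was lower, and Igf2r had nearly the same level in both. Each sequence is the first 200 bases of a window that runs from 250 bases before to 50 bases after a transcription start. Capitals mark the CG dinucleotides, the letters at which DNA is methylated. The Peg3 sequence lies on the minus strand at chr7:6730470-6730669, that of Plagl1 on the plus strand at chr10:13090582-13090781, that of Igf2 on the minus strand at chr7:142657547-142657746 and that of Igf2r on the minus strand at chr17:12769757-12769956. Igf2 has 4 windows, and the most downstream one is shown.
Peg3: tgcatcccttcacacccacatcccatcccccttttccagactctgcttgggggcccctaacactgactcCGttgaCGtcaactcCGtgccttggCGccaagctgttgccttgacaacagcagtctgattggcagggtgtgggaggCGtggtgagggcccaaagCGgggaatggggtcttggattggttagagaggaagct
Plagl1: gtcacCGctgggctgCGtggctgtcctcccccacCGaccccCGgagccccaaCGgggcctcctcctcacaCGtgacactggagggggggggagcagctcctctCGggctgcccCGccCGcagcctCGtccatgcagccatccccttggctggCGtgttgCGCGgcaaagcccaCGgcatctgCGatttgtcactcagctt
Igf2: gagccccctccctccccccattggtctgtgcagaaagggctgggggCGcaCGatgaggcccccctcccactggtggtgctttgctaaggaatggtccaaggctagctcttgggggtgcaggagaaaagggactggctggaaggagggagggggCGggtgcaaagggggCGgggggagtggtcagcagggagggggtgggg
Igf2r: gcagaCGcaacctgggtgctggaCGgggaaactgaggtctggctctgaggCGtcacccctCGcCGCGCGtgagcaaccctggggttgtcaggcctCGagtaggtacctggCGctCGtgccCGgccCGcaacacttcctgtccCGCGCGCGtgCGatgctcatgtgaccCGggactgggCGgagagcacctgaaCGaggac

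The whole windows of 300 bases differed in CG content. That of Peg3 held 13 CG dinucleotides, that of Plagl1 26 and that of Igf2r 34, against a median of 7 over 32841 windows. The 4 windows of Igf2 held 2, 14, 24 and 7. The window of Peg3 held the letters CCAAT 2 times, counting both strands, the Igf2 window shown above held them 1 time, and 37.4% of all windows held them at least once. The GC box GGGCGG was found 2 times in the Plagl1 window, 3 times in the Igf2r window, 2 times in the Igf2 window shown, 1 time in another Igf2 window and not in the Peg3 window, and 35.7% of all windows held it. The nuclear receptor letters AGGTCA were in the Igf2r window and in 1 of the Igf2 windows, and in neither the Peg3 nor the Plagl1 window, while 16.3% of all windows held them. The TATA letters TATAAA were in 13.6% of all windows and in none of the windows of these 4 genes. The YY1 letters GCCATNTT were in 6.05% of all windows and in no window of the 8 genes. None of these motifs was shared by Peg3 and Plagl1, and such matches describe letters and not bound sites.

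In control heart the imprinted growth genes fell into a high and a low set. Igf2 had 27.2 FPKM, Cdkn1c 22.1, Grb10 21.7, Igf2r 21.3 and H19 18.5. These 5 genes were above 84.7% or more of all symbols in the control library. Mest followed with 3.98 FPKM, Plagl1 with 0.857, Peg3 with 0.206 and Dlk1 with 0.0916. In csMed1-/- heart the order of the high set was different, with Grb10 at 21.4 FPKM, Igf2r at 19.6, Cdkn1c at 15.3, H19 at 12.97 and Igf2 at 10.2. Igf2 thus moved from the first to the fifth place. Neighbours within the high set differed by little, as Cdkn1c, Grb10 and Igf2r lay within 1 FPKM of each other in control, and no replicate shows whether such an order would hold in other pools. The name of the group, genes silenced after birth, does not describe these 5 genes, whose transcripts were well above 1 FPKM at day 23 in both libraries. A fetal or newborn library was not analysed here, so a decline after birth was not measured.

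**Figure D1:**
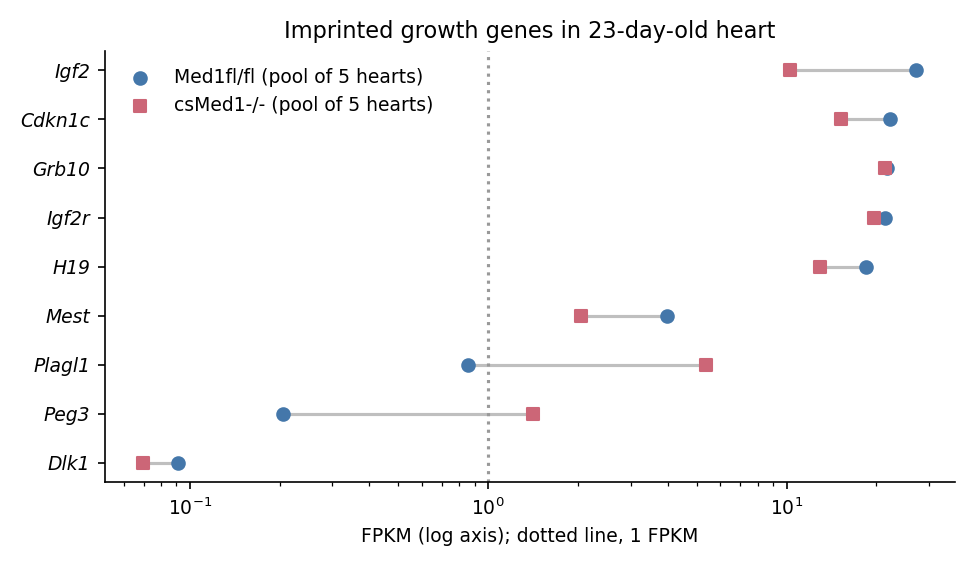
FPKM of the 9 imprinted growth genes on a log axis, with a circle for the Med1fl/fl library and a square for the csMed1-/- library, each made from a pool of 5 hearts. Igf2, at 27.2 and 10.2 FPKM, is lower in the csMed1-/- library, Plagl1, at 0.857 and 5.39, and Peg3, at 0.206 and 1.41, are higher, and Grb10 and Igf2r have nearly coincident points.

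Of the 9 genes, 8 met the filter, 2 of them higher and 1 lower past 2-fold in the csMed1-/- library, against 31.5% of all genes past 2-fold in either direction. Peg3 and Plagl1 met the filter only through the csMed1-/- library, where they are high. Peg3, at 0.206 FPKM in control, could meet it only by being higher past 2-fold, so its call follows from the filter. For Plagl1, at 0.857 FPKM in control, the call follows in part from the filter. With 1 FPKM required in both libraries, 0 of the remaining genes were higher and 1, Igf2, was lower. The median log2 ratio over the 8 genes was -0.32, against -0.07 over all genes. The share past 2-fold is close to that of all genes, and the group as a whole did not move one way.

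**Figure D2:**
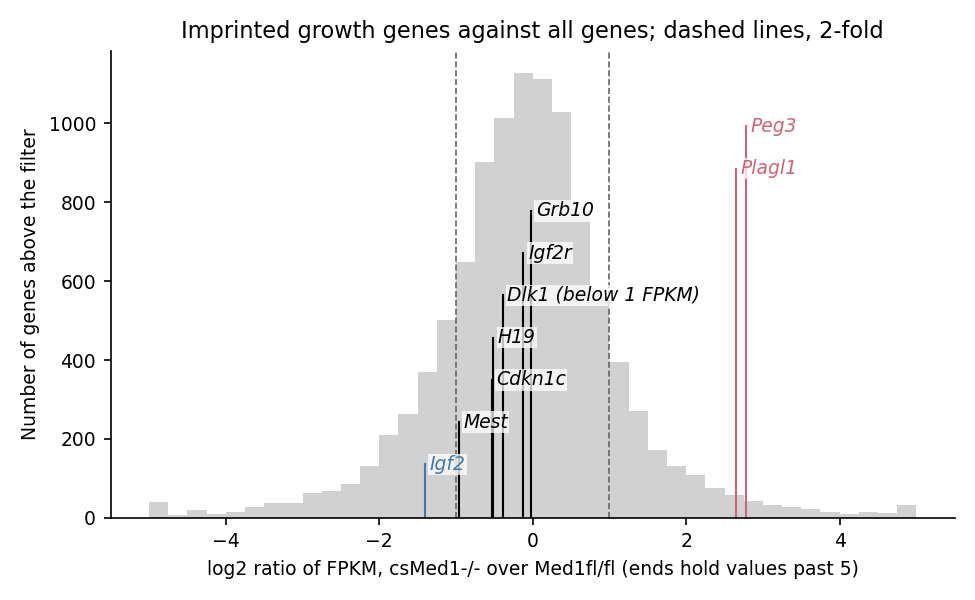
Histogram of the log2 ratio of FPKM, csMed1-/- over Med1fl/fl, for 10489 genes above the filter, with a line at the value of each imprinted growth gene (line heights only separate the names). Peg3 at 2.78 and Plagl1 at 2.65 lie far right of the 2-fold line, Igf2 at -1.41 lies left of it, and Mest at -0.97 lies just inside.

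The highest ratios belonged to 2 paternally expressed zinc finger genes. Peg3, which encodes a DNA-binding zinc finger protein, lies on chromosome 7 from 6703892 to 6730431 on the minus strand and has a transcript of 9 exons and 8694 bases (GENCODE M21, GRCm38). It stood at 0.206 FPKM in control hearts and at 1.41 FPKM in csMed1-/- hearts, 6.86 times as much, a log2 ratio of 2.78. The control level was above 45.2% of all symbols and the csMed1-/- level above 60.6%. At the estimated depth these values stand for about 113 and 1042 fragments, and the exact 95% interval of the ratio is 5.65 to 8.41. This interval covers counting error only and not the spread between pools of mice, and it rests on the shortest annotated transcript and a fragment length of 200 bases. Since the level was low in control, a pseudocount of 1 reduced the log2 ratio to 1.0.

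Plagl1, also called Zac1, encodes a zinc finger transcription factor that can arrest the cell cycle and is known to act on other imprinted genes. It lies on chromosome 10 from 13060504 to 13131694 on the plus strand. It stood at 0.857 FPKM in control hearts and at 5.39 FPKM in csMed1-/- hearts, a ratio of 6.29 and a log2 ratio of 2.65. This was about 205 and 1730 fragments, with an interval of 5.43 to 7.30 for counting error. With a pseudocount of 1 the log2 ratio was 1.78. Of all genes above the filter, 97.8% had a lower ratio than Plagl1 and 98.1% had a lower ratio than Peg3. Both genes met the filter only through the csMed1-/- library, so these places follow in part from the filter. Peg3, at 0.206 FPKM in control, could meet it only by being higher past 2-fold. The relatives of Plagl1 were low and had no such ratio. Plag1 stood at 0.0160 FPKM in control hearts and at 0.0185 FPKM in csMed1-/- hearts, and Plagl2 had 1.74 and 1.07 FPKM.

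Peg3 overlaps an antisense transcript, Peg3os, listed as Peg3as, which lies inside it on chromosome 7 from 6706760 to 6707624 (RefSeq). This row was looked up after the values of Peg3 were seen. It stood at 0.208 FPKM in control hearts and at 2.17 FPKM in csMed1-/- hearts, a log2 ratio of 3.39. The library kit was directional, but the strand setting used in counting is not given in the sources used here, so reads of Peg3 and of its antisense partner cannot be told apart. The other listed genes of the same imprinted domain were near 0. Zim1 had 0.0270 and 0.00962 FPKM, Usp29 had 0.00371 FPKM in control and is listed at 0 in csMed1-/- heart, and Zim3 is listed at 0 in both libraries.

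Igf2 was the one imprinted growth gene past 2-fold in the other direction. It encodes insulin-like growth factor 2, the main fetal growth factor of its family, and lies on chromosome 7 from 142650766 to 142666816 on the minus strand. It stood at 27.2 FPKM in control hearts and at 10.2 FPKM in csMed1-/- hearts, a ratio of 0.377 and a log2 ratio of -1.41. The counting interval of the ratio was 0.333 to 0.425, from at least about 791 and 400 fragments. Under the alternative scalings and pseudocounts the log2 ratio stayed between -1.42 and -1.32. In bulk tissue, fewer cells of a type and less RNA per cell cannot be told apart. Of all genes above the filter, 10.8% had a lower ratio.

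H19, the long non-coding RNA that shares enhancers and a control region with Igf2, lies on the same strand from 142575529 to 142578143. It stood at 18.5 FPKM in control hearts and at 12.97 FPKM in csMed1-/- hearts, a ratio of 0.700 and a log2 ratio of -0.51, inside 2-fold. Both genes were lower, but Igf2 by more. The FPKM of Igf2 was 1.47 times that of H19 in control and 0.790 times that of H19 in csMed1-/- heart, a comparison within each library that no library scaling can change. The antisense transcript Igf2os, listed as Igf2as, had 0.132 and 0.0616 FPKM, and the insulin gene Ins2 had 0.263 FPKM in control and is listed at 0 in csMed1-/- heart.

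Igf2r, the receptor that takes IGF2 from the cell surface to the lysosome, lies on chromosome 17 from 12682406 to 12769664 on the minus strand and has 48 exons. It stood at 21.3 FPKM in control hearts and at 19.6 FPKM in csMed1-/- hearts, a ratio of 0.920. The control Igf2 level was 1.27 times that of Igf2r, and the csMed1-/- level was 0.522 times that of Igf2r. Airn, the non-coding RNA transcribed through Igf2r on the other strand, stood at 1.81 FPKM in control hearts and at 4.48 FPKM in csMed1-/- hearts, a log2 ratio of 1.304. It shares 28354 bases with Igf2r, and reads of the overlapping stretch may be split between the genes. The organic cation transporter gene Slc22a3 of the same domain stood at 0.929 FPKM in control hearts and at 0.0260 FPKM in csMed1-/- hearts, below 1 FPKM in both, and Slc22a2 is listed at 0 in control.

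Grb10, an adaptor that binds the insulin and IGF1 receptors and restrains their signal, had the most even values of the group. It lies on chromosome 11 from 11930508 to 12038683 on the minus strand and stood at 21.7 FPKM in control hearts and at 21.4 FPKM in csMed1-/- hearts, a ratio of 0.985, with a counting interval of 0.936 to 1.04. Its relative Grb14, which is not imprinted in this list, stood at 80.3 FPKM in control hearts and at 12.2 FPKM in csMed1-/- hearts, a log2 ratio of -2.72. Grb2 had 45.6 and 40.9 FPKM. Grb14 was therefore 3.71 times as abundant as Grb10 in control and 0.569 times as abundant in csMed1-/- heart. Of the neighbours of Grb10, the actin regulator Cobl had 6.28 and 2.18 FPKM, a log2 ratio of -1.52, and the decarboxylase gene Ddc had 5.09 and 2.59 FPKM, a log2 ratio of -0.97.

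Cdkn1c encodes p57KIP2, an inhibitor of cyclin-dependent kinases, and lies on chromosome 7 from 143458339 to 143461050 on the minus strand. It stood at 22.1 FPKM in control hearts and at 15.3 FPKM in csMed1-/- hearts, a ratio of 0.690 and a log2 ratio of -0.54. The other inhibitors of this family were listed beside it. Cdkn1a, which encodes p21, stood at 30.5 FPKM in control hearts and at 693 FPKM in csMed1-/- hearts, a log2 ratio of 4.51. Cdkn1b, Cdkn2c and Cdkn2d lay within 2-fold, with log2 ratios of -0.45, -0.34 and 0.45. The level of Cdkn1a was 1.38 times that of Cdkn1c in control and 45.4 times that of Cdkn1c in csMed1-/- heart.

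Mest encodes a protein of the alpha/beta hydrolase fold and lies on chromosome 6 from 30723547 to 30748465 on the plus strand. It stood at 3.98 FPKM in control hearts and at 2.04 FPKM in csMed1-/- hearts, a ratio of 0.512, which is 1.95-fold lower and just inside the threshold. The counting interval was 0.449 to 0.585, so the side of the 2-fold line on which Mest falls is not settled even by counting error. Its neighbour Copg2, which shares 912 bases with it on the opposite strand, had 13.6 and 9.70 FPKM. In the more distant part of the same chromosome, Pon2 had 10.4 and 29.0 FPKM (log2 ratio 1.47) and Pon3 had 10.2 and 5.08 FPKM (log2 ratio -1.01). Sgce was within 2-fold at 6.23 and 4.75 FPKM.

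Dlk1, a transmembrane protein of the Notch ligand family that holds preadipocytes undifferentiated, lies on chromosome 12 from 109452823 to 109463336 on the plus strand. It stood at 0.0916 FPKM in control hearts and at 0.0699 FPKM in csMed1-/- hearts and did not meet the filter. On its shortest transcript, of 879 bases, this is at least about 4 fragments in each library, while its longest has 4653 bases. With 4 fragments the interval of the ratio ran from 0.139 to 3.998, so on that count a difference was not detectable. Of the same domain, Rtl1 had 0.00808 and 0.0101 FPKM and the deiodinase gene Dio3 had 0.0352 and 0.232 FPKM. Of 11 Notch pathway genes above the filter, 1 was higher and 2 were lower past 2-fold, 27.3% against 31.5% of all genes, which is near the background. Notch4 was higher at 15.9 and 32.4 FPKM, and the ligand gene Dll1, at 2.01 and 0.727 FPKM, and the target gene Hey2, at 1.06 and 0.409 FPKM, were lower.

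Split by parental origin, the 4 maternally expressed genes with a value had log2 ratios between -0.54 and -0.02, all of them inside 2-fold, and Grb10 turned to 0.05 when the ratios were centred on the median of all genes. The 5 paternally expressed genes ran from -1.41 for Igf2 to 2.78 for Peg3. With so few genes and no replicates the split is a description of these 9 values, and parental origin was not measured.

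The distal part of chromosome 7 holds Igf2, H19 and Cdkn1c together with other imprinted genes. Of 9 genes of this region above the filter, 2 were higher and 2 were lower past 2-fold, 44.4% against 31.5% of all genes. Tssc4 stood at 18.0 FPKM in control hearts and at 58.7 FPKM in csMed1-/- hearts (log2 ratio 1.71), and Osbpl5, which encodes a lipid transfer protein, had 12.0 and 50.7 FPKM (log2 ratio 2.08). Kcnq1, the gene of a cardiac potassium channel, had 30.3 and 13.7 FPKM (log2 ratio -1.14). Cd81, at 634 and 907 FPKM, Slc22a18, at 1.01 and 1.64, and Nap1l4, at 70.4 and 38.6, were inside 2-fold. The antisense RNA Kcnq1ot1 had 0.0361 and 0.0254 FPKM, and Phlda2, a restrainer of placental growth, is listed at 0 in both libraries. Ratios above and below 1 were mixed along the region, and whether each of its genes is imprinted in heart was not measured.

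**Figure D3:**
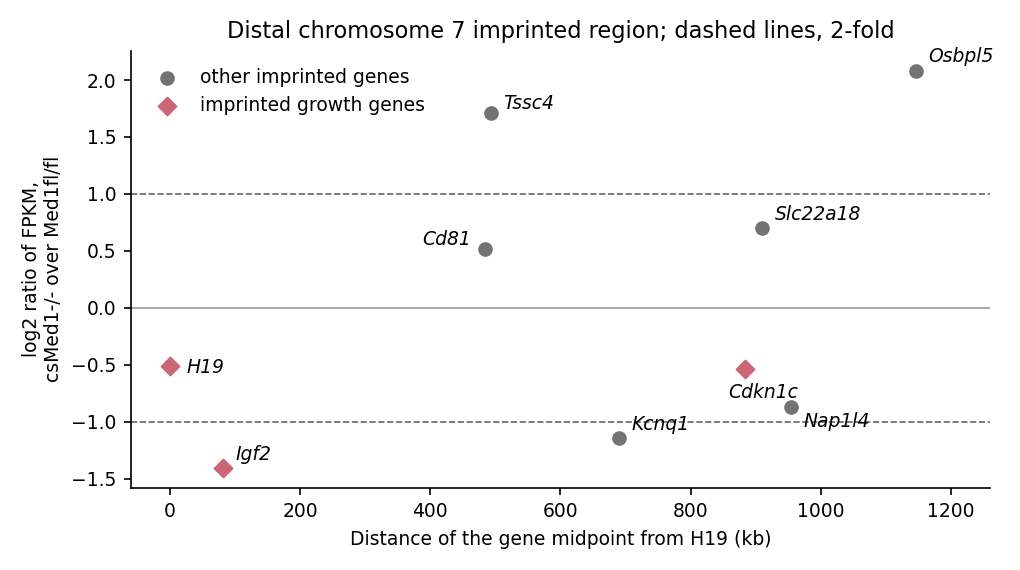
Log2 ratio of FPKM, csMed1-/- over Med1fl/fl, against the distance of each gene's midpoint from H19 in kilobases, for the 9 genes of the distal chromosome 7 region above the filter. The 3 imprinted growth genes H19, Igf2 and Cdkn1c lie below 0 with 1 of them, Igf2, past 2-fold, while Tssc4 and Osbpl5 lie above the upper dashed line.

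Beyond these genes, 58 other imprinted genes had been listed, of which 52 had a value and 23 met the filter. Past 2-fold 4 were higher and 3 were lower, 30.4% of those above the filter, against 31.5% of all genes. The 4 were Osbpl5, Tssc4, Pon2 and Airn, and the 3 were Cobl, Kcnq1 and Pon3. The median log2 ratio was 0.38. The other 16 were inside 2-fold, and 3 of them serve as examples. Gnas, which encodes the stimulatory G protein alpha subunit, had 1243 and 1689 FPKM, Ndn had 12.8 and 16.6 FPKM, and Peg13 had 23.8 and 28.3 FPKM. The share past 2-fold among these imprinted genes was close to that among all genes. The list is of known mouse imprinted genes, and whether each is imprinted in heart at this age was not measured.

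Regulators of imprints were listed as a further group. Of 19 such genes 9 met the filter, 0 were higher and 2 were lower past 2-fold, 22.2% of those 9 against 31.5% of all genes. The lower share is near the 18.0% of all genes. Dnmt3a, which encodes a DNA methyltransferase that sets new methylation, stood at 5.11 FPKM in control hearts and at 1.41 FPKM in csMed1-/- hearts (log2 ratio -1.86). Tet3, which encodes an enzyme that oxidises 5-methylcytosine, had 2.21 and 1.09 FPKM (log2 ratio -1.02) and came inside 2-fold once ratios were centred on the median. Dnmt1, the maintenance methyltransferase, had 4.35 and 7.05 FPKM. Trim28, a corepressor that keeps imprints, had 57.1 and 76.8 FPKM, and Ctcf, the factor that insulates Igf2 from its enhancers on the maternal copy, had 3.92 and 3.37 FPKM. DNA methylation was not measured.

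Around Igf2, the genes of the insulin-like growth factor axis were more often higher than lower. Of 20 listed genes 13 met the filter, 8 of them higher and 0 lower past 2-fold, which is 61.5% against 31.5% of all genes. The median log2 ratio of the 13 was 1.295. The receptor gene Igf1r stood at 1.64 FPKM in control hearts and at 8.12 FPKM in csMed1-/- hearts (log2 ratio 2.31). The ligand gene Igf1 had 0.423 and 1.44 FPKM (log2 ratio 1.77), so that the level of Igf2 was 64.3 times that of Igf1 in control and 7.12 times in csMed1-/- heart. Igf2bp2, whose protein binds Igf2 mRNA, had 0.934 and 3.23 FPKM (log2 ratio 1.79). Igf1 and Igf2bp2 met the filter only through the csMed1-/- library, and Igf1, at 0.423 FPKM in control, could meet it only by being higher past 2-fold. On its shortest transcript Igf1 had at least about 12 fragments in control and 56 in the csMed1-/- library. The insulin receptor gene Insr, at 5.00 and 4.20 FPKM, and Igfbp5, at 14.8 and 7.75 FPKM, were inside 2-fold.

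Other genes known to be high in fetal heart or to decline after birth did not follow 1 direction. Of 9 genes of this list above the filter, 4 were higher and 2 were lower past 2-fold, 66.7% against 31.5% of all genes. The 3 with the highest ratios were Nppa, which encodes atrial natriuretic peptide and had 468 and 11114 FPKM, Tnni1, the fetal troponin I gene, at 0.947 and 9.72 FPKM, and Acta1, skeletal actin, at 207 and 2033 FPKM. Sox4, at 1.75 and 0.538 FPKM, and the cyclin gene Ccnd1, at 9.83 and 3.66 FPKM, were lower. Tnni1 met the filter only through the csMed1-/- library. All 3 genes of the cell cycle list above the filter were higher, against 13.6% of all genes, and Cdk1 led them with 0.322 and 1.39 FPKM. All 3 met the filter only through the csMed1-/- library, so this count says little. Cdk1 and Aurkb, at 0.322 and 0.464 FPKM in control, could meet it only by being higher past 2-fold.

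**Figure D4:**
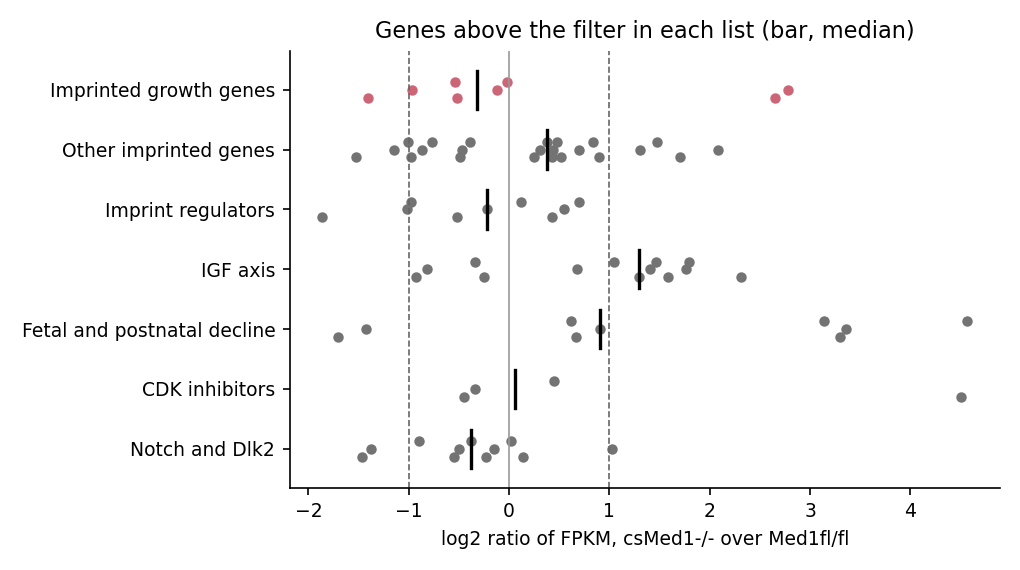
Log2 ratio of FPKM, csMed1-/- over Med1fl/fl, for the genes above the filter in each list, with 1 point per gene and a bar at the median. The medians are -0.32 for the 8 imprinted growth genes, 0.38 for the other imprinted genes and 1.295 for the insulin-like growth factor axis, and the imprinted growth genes spread from -1.41 to 2.78.

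Markers of the cell types of the heart differed between the libraries too, and their counts stand against 31.5% of all genes past 2-fold. Of 9 fibroblast markers above the filter 5 were higher and 1 was lower past 2-fold, and their summed level was 520 FPKM in control hearts and 1238 FPKM in csMed1-/- hearts. The collagen genes Col1a1, at 129 and 502 FPKM, and Col1a2, at 95.7 and 314 FPKM, made up most of that difference, while Pdgfra had 4.09 and 4.03 FPKM, Dcn 114 and 96.6 FPKM and Lum 8.04 and 3.72 FPKM. Of 8 endothelial markers 1 was higher and 3 were lower, with sums of 442 and 339 FPKM. Among them Kdr had 36.5 and 11.8 FPKM, Vwf had 15.3 and 55.4 FPKM, and Pecam1, Cdh5, Tie1 and Flt1 were inside 2-fold. Of 7 cardiomyocyte markers above the filter 0 were higher and 4 were lower, and the sums of 51748 and 31640 FPKM include Actc1 and Mb at 0 in control. The mural and smooth muscle list had 3 of 7 markers higher and 1 lower, with sums of 679 and 1118 FPKM, and the macrophage and leukocyte list had 1 of 7 higher, with sums of 333 and 382 FPKM. The higher mural sum rests on Cnn1, at 4.32 and 622 FPKM, while Acta2, at 573 and 310 FPKM, went the other way. The atrial list, which holds Nppa, had sums of 478 and 11170 FPKM, and the erythroid and skeletal muscle lists had sums of 36.5 and 85.2 FPKM and of 5.30 and 1.34 FPKM. Nppa, at 468 and 11114 FPKM, made up nearly all of the atrial sums. Myl4 was also higher, at 7.44 and 55.2 FPKM, while Myl7, at 1.42 and 1.10, and Sln, at 0.356 and 0.174, were not. Of 8 erythroid markers only 2 had a value. Epicardial markers were low, at a sum of 1.98 and 5.44 FPKM over 7 genes, and Krt19, at 0.313 and 2.93 FPKM, made up most of that difference. The sums that were higher in the csMed1-/- library, as Peg3 and Plagl1 were, had ratios of 2.38 for fibroblast, 1.65 for mural and smooth muscle, 1.15 for macrophage and leukocyte, 2.74 for epicardial, 2.34 for erythroid and 23.4 for atrial markers. The sums that were lower, as Igf2 was, had ratios of 0.611 for cardiomyocyte, 0.766 for endothelial and 0.253 for skeletal muscle markers. Myh1, at 4.05 and 0.471 FPKM, made up most of the control skeletal muscle sum, while Actn3, at 0.366 and 0.733, was higher. Myl2, at 20467 and 6571 FPKM, and Myl3, at 17340 and 10278, made up most of the control cardiomyocyte sum. Actn2, at 1286 and 1892 FPKM, was higher inside 2-fold. Actc1 and Mb add 9189 and 1040 FPKM to the cardiomyocyte sum of the csMed1-/- library only. The cardiomyocyte ratio is therefore too high if their 0 in control is a failed estimate. The part of cell makeup in these differences was not tested.

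**Figure D5:**
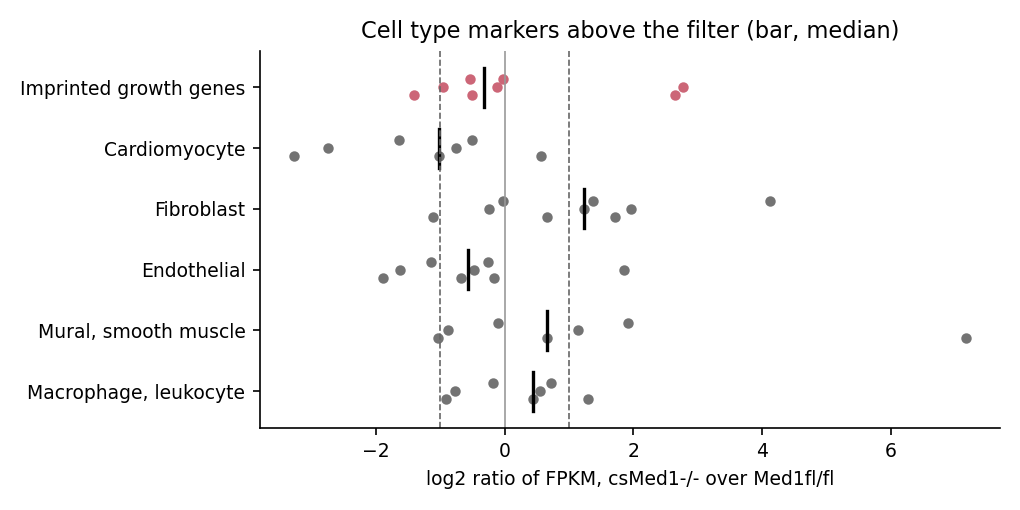
Log2 ratio of FPKM, csMed1-/- over Med1fl/fl, of the imprinted growth genes and of marker genes of 5 cell types above the filter, with 1 point per gene and a bar at the median. Fibroblast markers have a median of 1.23 and endothelial markers a median of -0.58, and each list spreads over both sides of 0.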

How the data were processed

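The authors pooled heart RNA of 5 mice per genotype, enriched polyadenylated RNA and sequenced directional libraries as single-end reads of 50 bases. Reads were aligned to mm10 (GRCm38) with TopHat 2.0.8b, and expression of known genes was computed with Cufflinks and Cuffdiff 2.1.1. The submitters' processing notes also name STAR 2.4.0h without a role. The deposited values are FPKM by the authors, and which library scaling Cuffdiff used is not given in the sources used here. The 23424 rows hold 22882 symbols, and rows of the 412 symbols on several rows were summed. No pseudocount was used. The imprinted growth genes and all lists were chosen with earlier results of these data known. All imprinted growth genes are named, and listed genes of their clusters, together with up to 3 genes past 2-fold per direction from each list, were to be named, and other genes given as context were chosen after their values were seen. Likeness of pattern was not formed over 2 libraries. Depth was estimated from the lowest mode of FPKM times length less 200 bases, over genes with 1 transcript longer than 1000 bases, if values were scaled to mapped fragments alone. The second mode lay at 2.23 and 2.20 times the first. Fragment counts use the shortest transcript of GENCODE M21, and intervals are exact (Clopper-Pearson, 95%). PCR reads are not independent molecules. The calls were tested on simulated data with planted differences well past 2-fold, little noise and no low control values. Their recovery was nearly fixed in advance, so this test shows nothing about Peg3, Plagl1 or the spread between pools. Alternatives changed pseudocount, filter, scaling, threshold and the summing of rows. Scripts ran in Python 3.11.15 with pandas 2.3.3 and numpy 2.4.6, intervals used scipy 1.17.1, and plots used matplotlib 3.10.9.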

Additional observations from a re-analysis of the deposited data

How the results depend on the processing

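The log2 ratios of the imprinted growth genes had 54 values under alternatives, of which 49 stayed inside their counting interval and 0 changed the sign of a difference past 2-fold. Part of the 49 was fixed in advance, and the 0 changes of sign are no test. A pseudocount added to both values cannot change the sign. The scalings shift all log2 ratios alike by at most 0.07, far less than a 2-fold difference. Each gene stands on 1 row, so taking the highest row could not change it, and the ratio interval of Dlk1, 0.139 to 3.998, is wide. Those of Peg3 ran from 1.0 to 2.85, those of Plagl1 from 1.78 to 2.72, those of Igf2 from -1.42 to -1.32 and those of Mest from -0.98 to -0.71, so Mest stayed inside 2-fold throughout. Scaling moved the median of all genes by at most 0.07. Of 110 counts under alternatives 80 stayed within 1.5 times. With 1 FPKM required in both libraries 0 imprinted growth genes were higher. With 10 FPKM required in either, 0 were higher, 5 genes of the IGF axis were higher, 0 regulators were lower, and 821 of all genes were higher and 885 lower. A 4-fold threshold left 0 imprinted growth genes lower, 1 other imprinted gene higher and 0 lower, 0 regulators lower, 1 gene of the IGF axis higher, and 453 of all genes higher and 539 lower. A 1.5-fold threshold gave 2 imprinted growth genes lower, 7 other imprinted genes higher and 6 lower, 1 regulator higher, 2 genes of the IGF axis lower, and 2488 of all genes higher and 3120 lower. Without a filter 8 other imprinted genes were higher and 6 lower, 3 regulators were higher and 4 lower, 1 gene of the IGF axis was lower, and 2504 of all genes were higher and 3182 lower. Centring on the median, a pseudocount of 0.1 and a pseudocount of 1 each left 1 regulator lower. The filters and thresholds admit other genes by construction. Under the centring and the pseudocounts Tet3, just past 2-fold at a log2 ratio of -1.02, came inside 2-fold. No paired analysis was possible because each genotype has 1 library. Depth limits what can be said of Dlk1, of other genes with few fragments such as Igf1, and of the side of the 2-fold line on which Mest falls. With 1 library per genotype, the spread between pools is unknown.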

Other observations

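The genes named here were chosen after their values were seen. Of 29 other imprinted genes below the filter, 18 were above 0 in both libraries, and of these 4 were higher past 2-fold, 3 were lower and 11 were inside 2-fold. The 4 were Peg10, Nap1l5, Dio3 and Zdbf2, and the 3 were Slc22a3, Zim1 and Ppp1r9a. Zdbf2 had 0.00108 and 0.00472 FPKM, and Peg10, Nap1l5 and Dio3 were picked for their ratios. Peg10, a gene derived from a retrotransposon, stood at 0.0789 FPKM in control hearts and at 0.402 FPKM in csMed1-/- hearts, about 32 and 222 fragments. Nap1l5 had 0.0362 and 0.239 FPKM, about 4 and 34 fragments, and Dio3 about 3 and 25 fragments. Peg10, Nap1l5 and Dio3 stayed below 1 FPKM in both libraries. Several paternally expressed genes below the filter had ratios nearer to 1, with Nnat at 1.01, Rtl1 at 1.25, Inpp5f at 1.45, Mkrn3 at 1.56, Kcnq1ot1 at 0.702, Rasgrf1 at 0.643 and Peg12 at 0.638.

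Slc22a3, of the Igf2r domain, had about 198 fragments in control and 7 in the csMed1-/- library, a ratio of 0.0280, while Igf2r itself had a ratio of 0.920.

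The microRNA rows inside Igf2 and Mest, Mir483 and Mir335, are listed at 0 in both libraries, and Mir432 of the Meg3 region had 48.3 FPKM in control and is listed at 0 in csMed1-/- heart. Libraries of polyadenylated RNA do not measure mature microRNAs.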
